A study of Mirounga angustirostris with 8 samples.

Results

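The matrix metallopeptidases (MMPs), the ADAM and ADAMTS metallopeptidases, the ADAMTS-like proteins and the tissue inhibitors of metalloproteinases (TIMPs) were examined in skeletal muscle of adult female northern elephant seals (NES, Mirounga angustirostris) across the molt. Members were all genes with these symbols whose deposited counts summed to at least 80 over the 8 libraries. This gave 43 members of 63 rows with such symbols, in a table of 24342 named genes. The other 20 rows comprised 9 with no count in any library and 11 with summed counts between 1 and 72.

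Poly-A RNA from biopsies of the longissimus dorsi, the long muscle of the back, was sequenced from free-ranging seals that were fasting on land. The post-molt group (labelled late molt) held 4 libraries, from seals 4448, 5572, 9678 and X410, taken late in the molt. The sources give a mean of 34 days for the study's post-molt samples, as time of molt in the labels and as time since the first biopsy in the study's methods, and no value for each of these 4 libraries. The pre-molt group (labelled early molt) held 4 libraries, from seals 5572, 5842, 6762 and C497, taken within 5 days of arrival. Of the 7 seals, 5572 alone was sampled in both groups. The groups therefore differ in animals as well as in time. Fasting time and the time of reduced activity on land move with molt stage. These cannot be told apart here. The study chose the 4 libraries of each group with the most uniquely mapped reads, because some samples sequenced poorly from low-quality RNA. Each library is bulk tissue, so that fewer cells of a type and less RNA per cell cannot be told apart. Values below are given in the seal order just listed, in CPM, the counts of a gene scaled to library size with trimmed mean of M-values (TMM) factors.

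The libraries held between 30771344 and 61222301 counts in named genes, and between 12678 and 18047 genes had a count. Post-molt 9678 and post-molt 4448 stood apart by the fewest genes detected, 12678 and 13741, and they held 12 and 7 members at 0, against 0 to 4 members at 0 in the other 6 libraries. Of 29 member values at 0 among 344, 19 lay in these 2 libraries. Post-molt 9678 held the fewest counts, 30771344, and the largest unmapped share in the study's mapping summary. Post-molt 4448 held the most counts, 61222301, and the cause of the zeros in these 2 libraries was not tested. Muscle fiber marker genes summed to between 168308 and 239754 CPM in post-molt libraries and to between 182474 and 286763 CPM in pre-molt libraries. Keratinocyte markers, for cells of the skin above the biopsy, were 3 of 5 in the table and summed to at most 2.19 CPM in any library.

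MMPs are zinc-dependent enzymes that are made with a propeptide and, once this is removed, cut collagens, proteoglycans and other proteins of the extracellular matrix. ADAMs sit in the cell membrane and shed the outer parts of growth factors, cytokines and receptors, while the secreted ADAMTS enzymes cut proteoglycans, process procollagen and act on fibrillin microfibrils. ADAMTS-like proteins share the ancillary domains of ADAMTS but lack the catalytic domain, and TIMPs block the active site of MMPs and of some ADAMs and ADAMTS enzymes. In skeletal muscle most of these proteins are known from fibroblasts, vessel walls, infiltrating leukocytes and regenerating fibers.

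Of the 43 members, 42 passed the filter on low counts and were tested, MMP7 being the exception. In edgeR's quasi-likelihood test, with Benjamini-Hochberg adjustment over all 14315 genes tested, 1 member (MMP11) was lower and 0 were higher in post-molt muscle, where 0.133% of all genes were called lower and 0.217% higher. At an unadjusted p under 0.05, 5 members were higher and 4 lower, against 5.2% and 6.22% of all genes. DESeq2, which gave an adjusted p for 24 members, called 4 higher (ADAMTS1, ADAMTSL4, TIMP3 and TIMP4) and 3 lower (MMP2, MMP11 and ADAMTS8), where it called 3.35% and 3.16% of all genes with an adjusted p. The 4 post-molt values lay above all 4 pre-molt values for 4 members (ADAMTS1, ADAMTS12, ADAMTSL4 and TIMP4) and below them for 3 (MMP11, ADAMTS7 and ADAMTS8), against 4.04% and 5.11% of all genes, or 9.16% in either direction.

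Fold changes are log2 values of post-molt over pre-molt, so that negative values mean lower in post-molt muscle. They ran from -3.66 (ADAMTS8) to 1.94 (ADAMTS12), with 18 members above 0, where 46.4% of all genes lay above 0, and 24 below. Their median was -0.19 against -0.04 for all genes tested, and their median size regardless of sign was 0.64 against 0.37. Members listed at 0 in at least 1 library numbered 15, and the fold changes of these carry standard errors (SE) of up to 1.90.

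**Figure D1:**
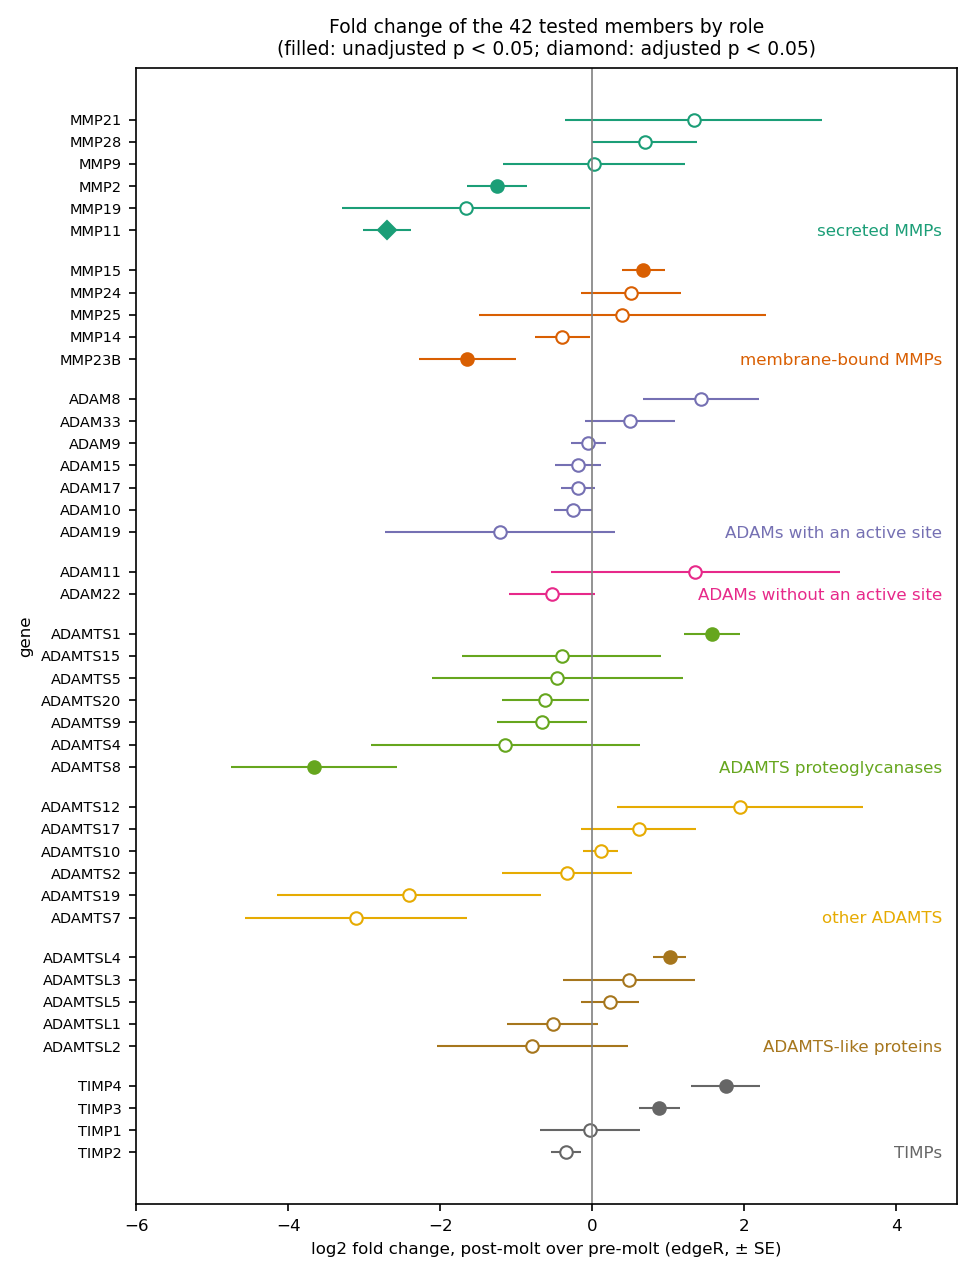
The horizontal axis is the log2 fold change of post-molt over pre-molt with its SE, for the 42 tested members grouped by role. Filled marks have an unadjusted p under 0.05 and the diamond is the only member with an adjusted p under 0.05 in edgeR, MMP11 at -2.70.

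Among the secreted MMPs, MMP11 fell. This enzyme, stromelysin-3, is activated inside the cell by furin and is typically made by fibroblasts of tissue that is being rebuilt. MMP11 had 8.0, 6.92, 8.55 and 7.83 CPM in post-molt libraries, against 90.6, 37.9, 42.6 and 32.6 CPM in pre-molt libraries. The groups did not overlap, and the post-molt libraries lay within a narrow band while the pre-molt ones were spread widely. The means were 7.82 ± 0.679 CPM post-molt and 50.9 ± 26.8 CPM pre-molt (SD, n = 4 each). The log2 fold change was -2.70 ± 0.32 (SE), with a 95% interval of -3.39 to -2.01, or 6.51-fold lower in post-molt muscle, with an edgeR adjusted p of 0.00589. MMP11 ranked 3rd of 14315 genes by p. Its call was kept in each of the 8 fits that left out 1 library, at log2 fold changes from -2.86 to -2.27. Without post-molt 4448 and 9678 the change was -2.78, with an edgeR adjusted p of 0.144 among 2 post-molt and 4 pre-molt libraries. Without pre-molt 5842 and post-molt 9678 it was -2.83, with an edgeR adjusted p of 0.0600. DESeq2 called MMP11 lower in both of these settings. Over all libraries its DESeq2 adjusted p was 4.63e-13, and that call was kept in 8 of 8 fits that left out 1 library.

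MMP2, or gelatinase A, cuts denatured collagen and type IV collagen. It had 16.2, 21.8, 8.81 and 36.8 CPM in post-molt libraries, against 45.9, 80.4, 32.2 and 40.9 CPM in pre-molt libraries. The groups overlapped by a single pair, since post-molt X410 lay above pre-molt 6762. The change was -1.25 ± 0.40 (SE), with an adjusted p of 0.197 in edgeR and 0.0449 in DESeq2. When single libraries were left out that DESeq2 call was kept in 2 fits of 8, and without pre-molt 5842, its highest library, the edgeR change was -0.89.

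EdgeR called none of the other secreted MMPs, and DESeq2 gave MMP9 alone of them an adjusted p, without a call. MMP9, gelatinase B, is stored in neutrophil granules, and had 1.69, 10.9, 0 and 2.34 CPM in post-molt libraries, against 0.571, 0.815, 3.84 and 9.42 CPM in pre-molt libraries. Its values overlapped throughout, with a change of 0.02 ± 1.2 (SE), and within seal 5572 the post-molt library lay 4.26 log2 units above the pre-molt one. MMP28, or epilysin, had 1.62, 3.86, 3.58 and 2.66 CPM in post-molt libraries, against 2.64, 2.48, 1.53 and 0.605 CPM in pre-molt libraries (change 0.69 ± 0.69, SE; edgeR adjusted p = 0.808). MMP19, which cuts basement membrane proteins, had 0, 1.0, 0 and 0.773 CPM in post-molt libraries, against 1.40, 2.54, 1.37 and 0.302 CPM in pre-molt libraries (change -1.66 ± 1.63, SE; edgeR adjusted p = 0.804). Both overlapped between the groups, as did MMP21, a gene known for left-right body patterning that was named here after its values were seen (1.33 ± 1.69, SE; edgeR adjusted p = 0.857). The untested MMP7, or matrilysin, an enzyme of glandular epithelium, had a count in 2 post-molt libraries and in 1 pre-molt library.

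The membrane-bound MMPs held no called member. MMP14, which with TIMP2 activates the proenzyme of MMP2 at the cell surface, had 13.1, 15, 5.87 and 6.18 CPM in post-molt libraries, against 13.1, 18.4, 10.6 and 10.6 CPM in pre-molt libraries. The change of -0.39 ± 0.36 (SE) had a 95% interval of -1.17 to 0.39. MMP15, a relative of MMP14, had 31.1, 47.5, 45.3 and 49.7 CPM in post-molt libraries, against 38.5, 13.6, 26.9 and 29.7 CPM in pre-molt libraries. Post-molt libraries other than 4448 lay above all pre-molt ones, but at 0.67 ± 0.29 (SE) the adjusted p was 0.378 in edgeR and 0.18 in DESeq2.

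MMP23B, a short enzyme that lacks the hemopexin domain, had 1.13, 3.11, 2.07 and 1.70 CPM in post-molt libraries, against 7.16, 13.1, 1.87 and 2.89 CPM in pre-molt libraries. Pre-molt 5572 and 5842 lay above the other libraries, which overlapped. The change was -1.64 ± 0.64 (SE; adjusted p = 0.321 in edgeR), and -0.97 without pre-molt 5842. DESeq2 called MMP23B lower in 1 of the 8 fits with a library left out, that without pre-molt 6762. MMP25, a lipid-anchored enzyme of leukocytes, had 0, 3.08, 0 and 0.614 CPM in post-molt libraries, against 0.833, 0, 1.61 and 0.353 CPM in pre-molt libraries, a change of 0.40 ± 1.89 (SE). MMP24, best known from neurons and named here after its values were seen, lay between 1.32 and 8.07 CPM in post-molt libraries and between 1.24 and 6.03 CPM in pre-molt libraries.

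**Figure D2:**
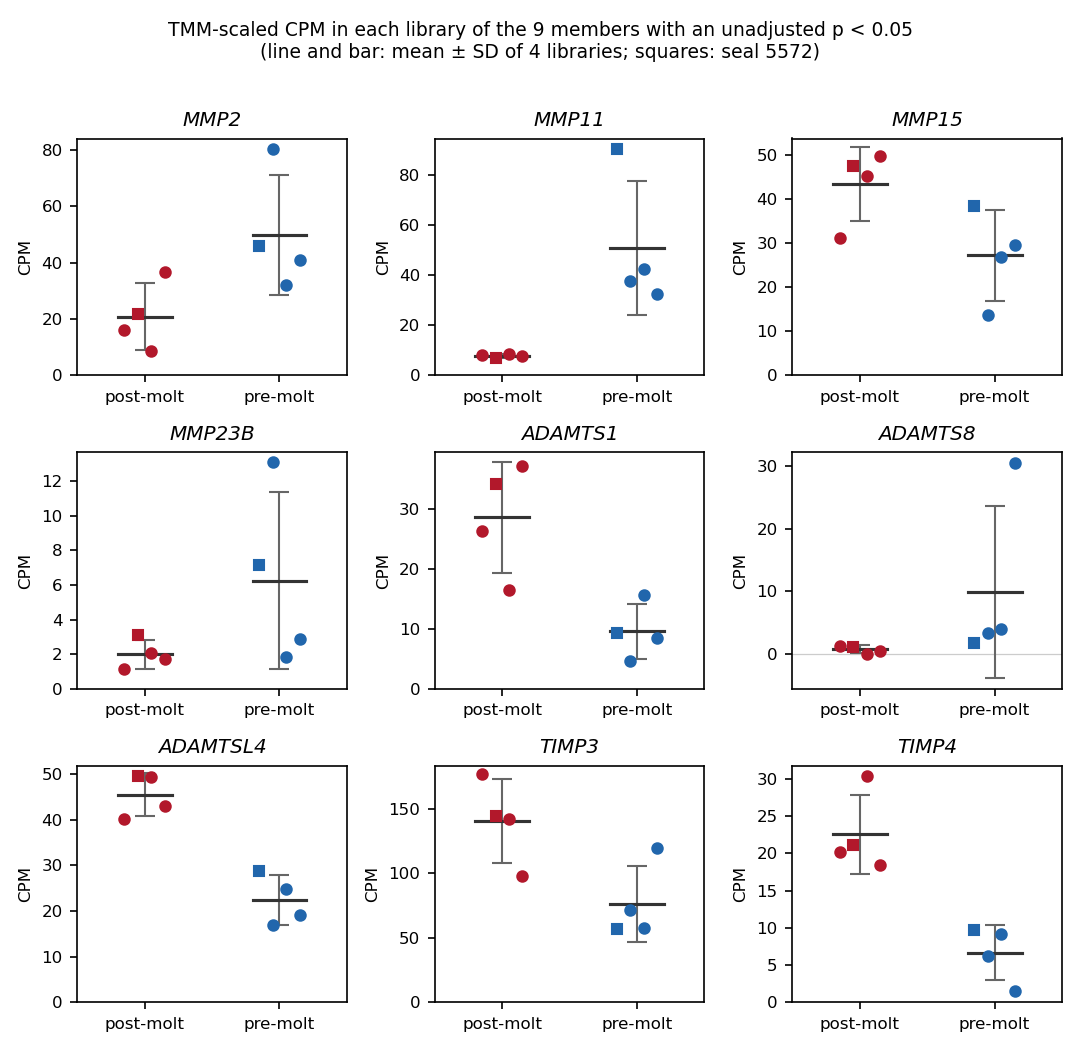
Each panel gives the CPM in every library, with the mean and SD, for the 9 members with an unadjusted p under 0.05, post-molt on the left and squares for seal 5572. MMP11 separates furthest, at 6.92 to 8.55 CPM post-molt against 32.6 to 90.6 CPM pre-molt.

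Markers of other cells moved with some of these members. Fibroblast markers, 11 of 11 in the table, all had negative fold changes (median -1.33), where 46.4% of all genes lay above 0. An unadjusted edgeR p under 0.05 was reached by 6, all lower, against 6.22% of all genes lower. DESeq2 called 4 lower, where it called 3.16% of all genes with an adjusted p lower, and edgeR called 0. PDGFRA, FBLN1 and MFAP5 changed less, by -0.46 ± 0.54, -0.28 ± 0.37 and -0.60 ± 0.49 (SE), and overlapped between the groups. The markers summed to 207, 276, 251 and 496.98 CPM in post-molt libraries, against 519, 1504, 462 and 674 CPM in pre-molt libraries. In pre-molt 5842, COL3A1, COL1A1 and COL1A2 gave 479, 345 and 283 CPM of this sum. MMP2 and this sum were both lower in post-molt 4448, 5572 and 9678 than in any other library, and in post-molt X410, the post-molt library with the most of both, MMP2 lay within the pre-molt range. MMP11 stood at 7.83 CPM in that library, against 42.6 CPM in pre-molt 6762, whose fibroblast sum was 462 CPM. Adipocyte markers, 5 of 5 in the table, had negative fold changes for the 4 tested (median -1.17), and summed to 28.6, 94.2, 37.6 and 58.9 CPM in post-molt libraries, against 73.0, 189, 54.2 and 104 CPM in pre-molt libraries. Their sums overlapped between the groups and were highest in pre-molt 5842, as were MMP2, MMP23B and the fibroblast sum, while LEP, a defining adipocyte hormone, was at 0 in 7 of the 8 libraries. CIDEC, a lipid droplet protein, had a change of -2.29 ± 0.45 (SE), with an adjusted p of 0.0542 in edgeR and 0.000162 in DESeq2. The part of fibroblast or adipocyte content in the results for MMP2, MMP11 and MMP23B was not tested.

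Neutrophil markers, 6 of 8 in the table, summed to 7.30, 41.0, 0.742 and 8.38 CPM in post-molt libraries, against 4.16, 10.8, 20.3 and 18.9 CPM in pre-molt libraries. MPO, a defining enzyme of neutrophil granules, was at 0 in 6 of the 8 libraries and at most 0.376 CPM. Post-molt 5572, with the highest sum, was also highest for MMP9, MMP25 and ADAM8, a leukocyte ADAM named here after its values were seen. ADAM8 had 6.42, 24.4, 3.39 and 2.62 CPM in post-molt libraries, against 1.07, 1.35, 6.80 and 4.42 CPM in pre-molt libraries. Its change was 1.43 ± 0.76 (SE; edgeR adjusted p = 0.541), and the part of leukocytes in it was not tested.

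**Figure D3:**
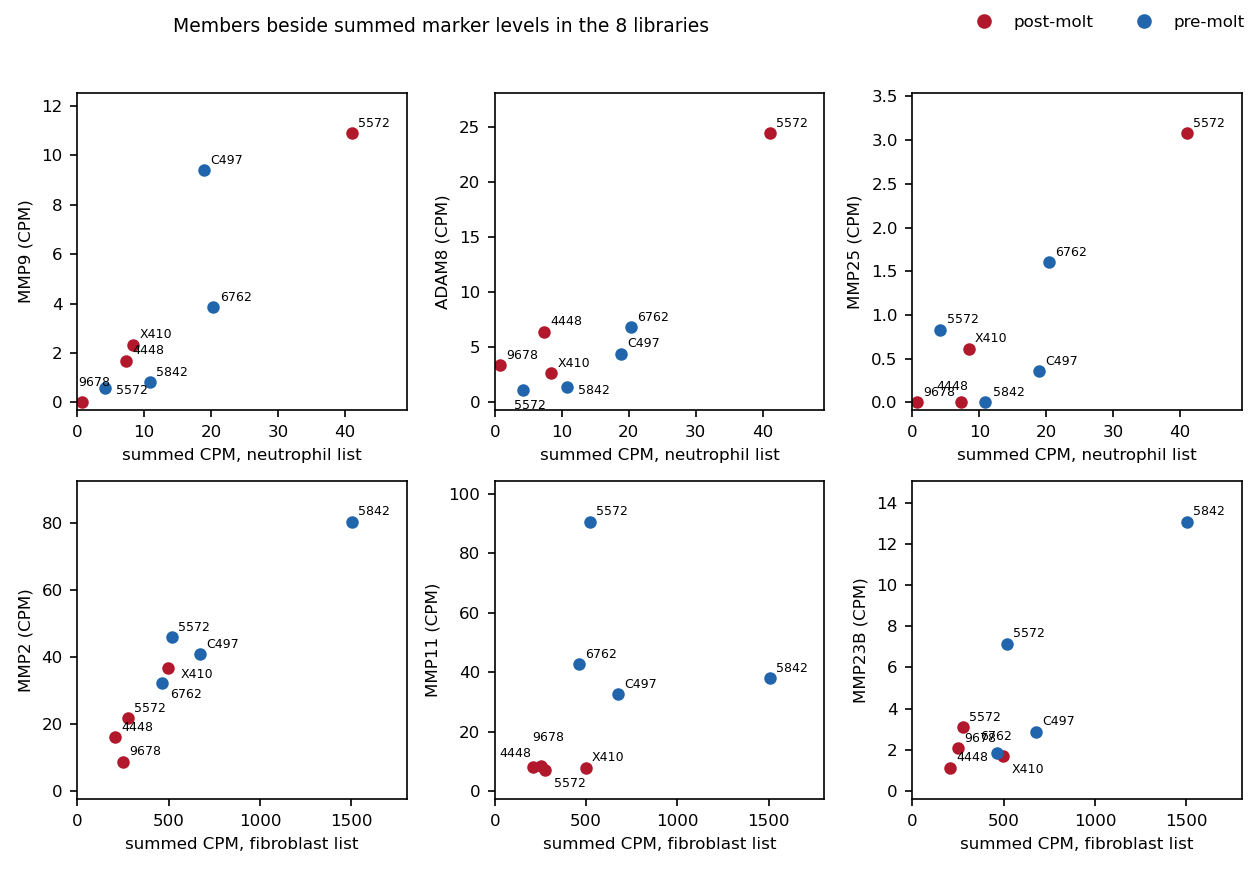
MMP9, ADAM8 and MMP25 are plotted in CPM against the summed CPM of neutrophil markers, and MMP2, MMP11 and MMP23B against that of fibroblast markers, 1 point a library. Post-molt 5572 is the highest for the neutrophil sum (41.0 CPM) and for all 3 genes plotted against it.

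The ADAMs with an active site gave 0 calls in edgeR or DESeq2 and 0 members with an unadjusted p under 0.05. Fold changes were above 0 for 2 of 7, where 46.4% of all genes lay above 0, with a median of -0.19. Intervals were narrowest for ADAM9, ADAM10, ADAM15 and ADAM17. ADAM10, which releases Notch and many other receptors, had 16.7, 16.6, 16.2 and 24.8 CPM in post-molt libraries, against 15.3, 26.9, 25.6 and 21.1 CPM in pre-molt libraries, and its change was -0.26 with a 95% interval of -0.80 to 0.29. ADAM17, which releases tumor necrosis factor and ligands of the epidermal growth factor receptor, had 14.7, 19.6, 18.9 and 18.9 CPM in post-molt libraries, against 20.1, 16.3, 25.3 and 20.2 CPM in pre-molt libraries. Its change was -0.19, with a 95% interval of -0.67 to 0.30. ADAM10 and ADAM17 were named after their values were seen.

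ADAM9 and ADAM15, both membrane proteases that also bind integrins, overlapped between the groups as well. ADAM9 had 27.0, 34.7, 36.2 and 52.8 CPM in post-molt libraries, against 34.5, 35.9, 50.1 and 35.8 CPM in pre-molt libraries (change -0.05, 95% interval -0.56 to 0.45). ADAM15 had 79.0, 50.5, 30.7 and 41.9 CPM in post-molt libraries, against 69.8, 76.4, 35.5 and 48.5 CPM in pre-molt libraries (change -0.19, 95% interval -0.85 to 0.48). ADAM19, a sheddase of neuregulins, and ADAM33, both named after their values were seen, had changes of -1.22 ± 1.51 and 0.50 ± 0.60 (SE). The ADAMs without an active site, known as synaptic partners of LGI proteins in mice and humans, overlapped between the groups. ADAM22 had 2.84, 2.69, 2.19 and 3.05 CPM in post-molt libraries, against 1.69, 6.49, 2.33 and 5.05 CPM in pre-molt libraries (change -0.53 ± 0.56, SE). ADAM11 reached 2.58 CPM in post-molt 4448 and at most 0.646 CPM elsewhere (change 1.36 ± 1.90, SE).

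The proteoglycan-cutting ADAMTS enzymes held 0 calls in edgeR. DESeq2 gave an adjusted p for 4 of the 7 and called 1 in each direction. Of all genes with an adjusted p, it called 3.35% higher and 3.16% lower. Fold changes were above 0 for 1 of 7, where 46.4% of all genes lay above 0, with a median of -0.62. Of the 7, 4 held a 0 in at least 1 library. ADAMTS1, which cuts versican and aggrecan and is induced by inflammation and hormones, had 26.4, 34.2, 16.6 and 37.2 CPM in post-molt libraries, against 9.35, 4.70, 15.7 and 8.56 CPM in pre-molt libraries. The groups did not overlap, although post-molt 9678 and pre-molt 6762 nearly met. The means were 28.6 ± 9.23 CPM post-molt and 9.57 ± 4.54 CPM pre-molt (SD, n = 4 each). The change was 1.58 ± 0.36 (SE; 95% interval 0.79 to 2.37), with an adjusted p of 0.0781 in edgeR and 0.00177 in DESeq2. DESeq2 kept this call in each of 8 fits that left out 1 library, and lost it without both libraries of seal 5572.

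ADAMTS8, an enzyme also known to restrain vessel growth, had 1.38, 1.17, 0 and 0.555 CPM in post-molt libraries, against 1.81, 3.32, 4.08 and 30.5 CPM in pre-molt libraries. The groups did not overlap, but pre-molt C497 lay far above every other library. The change was -3.66 ± 1.09 (SE), with an adjusted p of 0.171 in edgeR and 0.00917 in DESeq2, and it was -1.98 without pre-molt C497. When single libraries were left out, DESeq2 kept the call in 4 fits of 8 and gave no adjusted p in 2. The same library, pre-molt C497, was also the highest of 8 for ADAMTS5, ADAMTS15, ADAMTS19, ADAMTS20 and ADAMTSL1, named here after their values were seen. In the RefSeq annotation of the elephant seal genome ADAMTS1 and ADAMTS5 are adjacent protein-coding genes, as are ADAMTS8 and ADAMTS15. ADAMTS5 had a change of -0.46 ± 1.65 (SE) and ADAMTS15 one of -0.40 ± 1.31 (SE), both on low values with zeros. ADAMTS4, ADAMTS9 and ADAMTS20, also named after their values were seen, had changes of -1.14 ± 1.77, -0.66 ± 0.59 and -0.62 ± 0.58 (SE).

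Of the 6 other ADAMTS enzymes tested, none passed edgeR and none had an unadjusted edgeR p under 0.05. DESeq2 gave an adjusted p for 1 of them (ADAMTS10), which it did not call. ADAMTS7, an enzyme that cuts cartilage oligomeric matrix protein, had 0, 0.861, 0 and 0.357 CPM in post-molt libraries, against 1.57, 4.64, 1.72 and 2.60 CPM in pre-molt libraries. The groups did not overlap, with an edgeR change of -3.11 ± 1.46 (SE) and an adjusted p of 0.445. DESeq2 gave ADAMTS7 no adjusted p over all libraries and called it lower without post-molt 5572. ADAMTS12, its closest relative, lay the other way without overlap, at 0.745, 0.833, 1.48 and 1.51 CPM in post-molt libraries, against 0.476, 0, 0.702 and 0 CPM in pre-molt libraries (adjusted p = 0.747 in edgeR). These values are low, and the difference between the 2 genes' changes was not tested. ADAMTS10, which binds fibrillin microfibrils, had means of 29.4 ± 1.64 CPM post-molt and 27.3 ± 8.04 CPM pre-molt (SD, n = 4 each), with a change of 0.11 and a 95% interval of -0.39 to 0.61. ADAMTS17, also a microfibril enzyme, had 1.32, 1.69, 4.07 and 2.0 CPM in post-molt libraries, against 1.81, 1.79, 1.64 and 0.705 CPM in pre-molt libraries (change 0.61 ± 0.76, SE). ADAMTS2, which removes the amino-terminal propeptide of procollagen, had 1.73, 1.61, 2.42 and 3.27 CPM in post-molt libraries, against 1.21, 6.68, 0.24 and 3.26 CPM in pre-molt libraries (change -0.33 ± 0.85, SE). ADAMTS19 had a change of -2.41 ± 1.74 (SE).

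Among the ADAMTS-like proteins ADAMTSL4, which binds fibrillin and aids microfibril assembly, had 40.1, 49.6, 49.3 and 42.9 CPM in post-molt libraries, against 28.8, 17, 24.9 and 19.0 CPM in pre-molt libraries. The lowest post-molt library lay above the highest pre-molt one. The means were 45.5 ± 4.72 CPM post-molt and 22.4 ± 5.42 CPM pre-molt (SD, n = 4 each). The change was 1.02 ± 0.21 (SE; 95% interval 0.55 to 1.48), with an adjusted p of 0.0629 in edgeR and 0.000241 in DESeq2, which kept the call in 8 of 8 fits that left out 1 library. ADAMTSL5 had 14.4, 12.6, 12.9 and 5.43 CPM in post-molt libraries, against 11.6, 6.21, 6.54 and 14.1 CPM in pre-molt libraries (change 0.23 ± 0.38, SE). ADAMTSL1, ADAMTSL2 and ADAMTSL3, all named after their values were seen, overlapped between the groups. Their changes were -0.52 ± 0.60, -0.79 ± 1.26 and 0.48 ± 0.86 (SE). EdgeR called none of these, and DESeq2 gave ADAMTSL2 and ADAMTSL3 no adjusted p.

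Of the 4 inhibitors, edgeR called 0. An unadjusted edgeR p under 0.05 was reached by TIMP3 and TIMP4, both higher, against 5.2% of all genes higher. DESeq2 gave an adjusted p for 3 of the 4, all but TIMP1. It called TIMP3 and TIMP4 higher in post-molt muscle, where it called 3.35% of all genes with an adjusted p higher. TIMP3, which is bound to the matrix and inhibits ADAM17 and aggrecan-cutting ADAMTS enzymes as well as MMPs, had 177, 145, 142 and 98.2 CPM in post-molt libraries, against 56.8, 71.3, 57.7 and 120 CPM in pre-molt libraries. The groups overlapped only because pre-molt C497 lay above post-molt X410. The change was 0.88 ± 0.27 (SE), with an adjusted p of 0.184 in edgeR and 0.0412 in DESeq2, a call kept in 2 of 8 fits that left out 1 library. TIMP4, the inhibitor best known from heart and skeletal muscle, had 20.2, 21.2, 30.4 and 18.5 CPM in post-molt libraries, against 9.73, 6.27, 9.18 and 1.56 CPM in pre-molt libraries. The groups did not overlap. Its change was 1.76 ± 0.45 (SE), with an adjusted p of 0.106 in edgeR and 0.00643 in DESeq2, which kept the call in 8 of 8 such fits. DESeq2 did not call TIMP4 without post-molt 4448 and 9678, nor without pre-molt 5842 and post-molt 9678, and it did not call TIMP3 in either.

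TIMP2, which inhibits MMPs and takes part in activating MMP2, had 78.0, 88.8, 63.1 and 84.4 CPM in post-molt libraries, against 92.3, 129, 98.2 and 80.5 CPM in pre-molt libraries. Its change was -0.35 ± 0.20 (SE; 95% interval -0.78 to 0.09). TIMP1, induced in many injured tissues, had 1.56 to 3.23 CPM in post-molt libraries and 1.37 to 3.58 CPM in pre-molt libraries, with a change of -0.03 ± 0.66 (SE). Whether TIMP3 and TIMP4 differed from TIMP1 and TIMP2 in their change was not tested. Counts of TIMP3 over TIMP2 within a library were 2.27, 1.63, 2.25 and 1.16 post-molt, against 0.616, 0.555, 0.588 and 1.49 pre-molt. This ratio overlapped between the groups only because pre-molt C497 lay above post-molt X410. In the RefSeq annotation TIMP1 overlaps SYN1 and TIMP4 overlaps SYN2, as MMP9, MMP14 and MMP28 overlap other genes of the count table. These overlaps are of whole gene spans in the elephant seal assembly, not of exons or of the monk seal annotation used for counting. The counting strand is not stated, and whether such overlaps affect the counts was not tested.

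**Figure D4:**
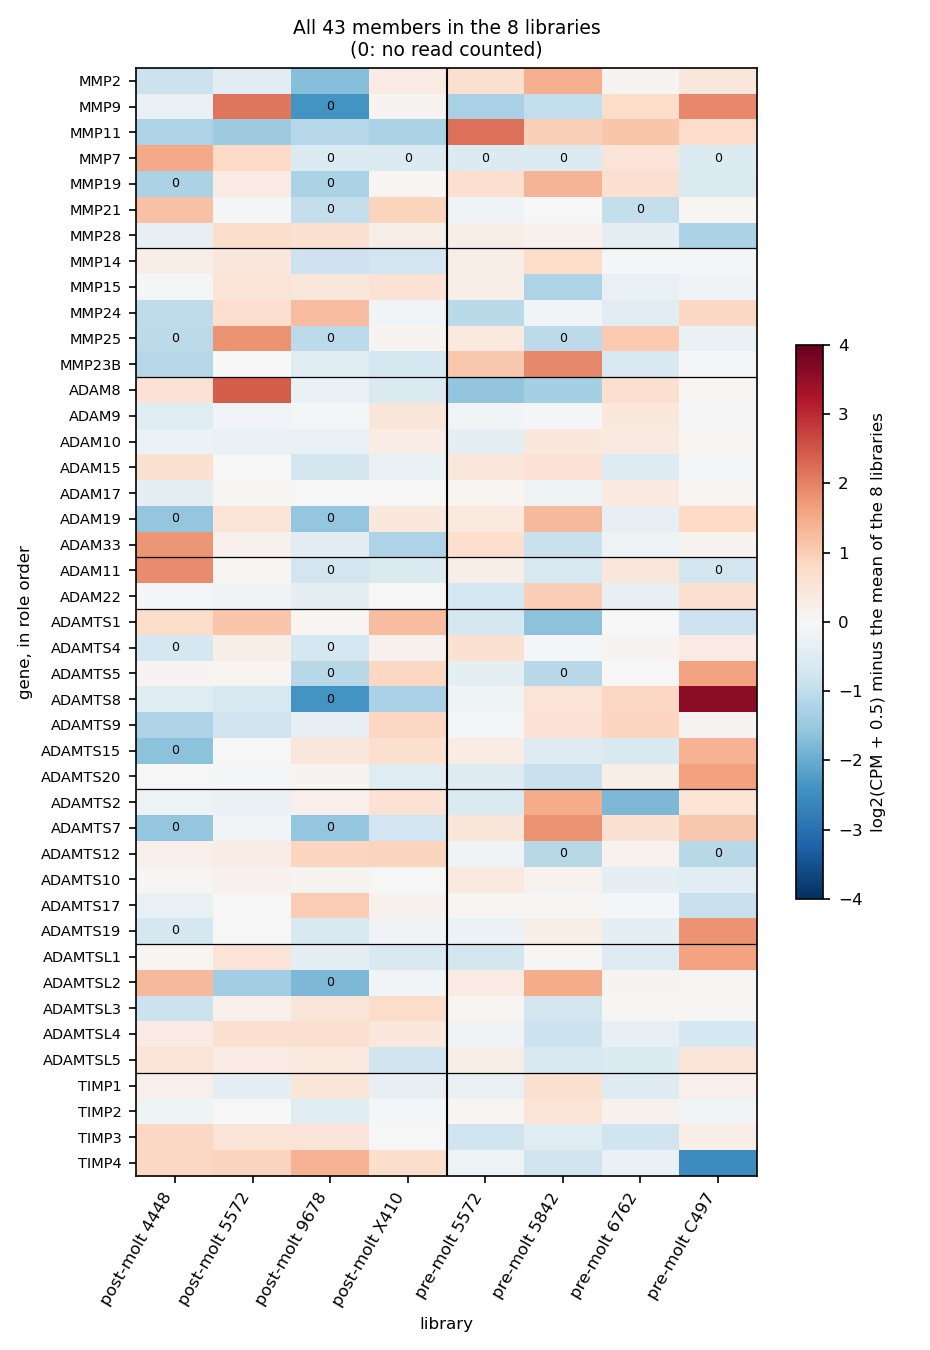
Colors give each member's log2 CPM minus its mean over the 8 libraries, for all 43 members by role, post-molt libraries left of pre-molt ones, with 0 marking no read. Zeros gather in post-molt 9678 (12 members) and 4448 (7 members), and MMP11, at -2.70, has the largest fold change of the 28 members without a 0.

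Within seal 5572, sampled at both times, post-molt minus pre-molt log2 values had the direction of the group difference for 9 of the 9 members with an unadjusted p under 0.05. They were -3.71 for MMP11, -1.07 for MMP2, 1.87 for ADAMTS1, 0.78 for ADAMTSL4, 1.35 for TIMP3 and 1.12 for TIMP4. Both libraries of this seal also entered the group fits, so these values are no independent check. Without either library of seal 5572 the change of MMP11 was -2.21 (edgeR adjusted p = 0.0369), and DESeq2 called ADAMTSL4, TIMP4 and MMP11.

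Of 29 tested genes for matrix substrates, 25 had fold changes below 0, where 46.4% of all genes lay above 0. The median of the 29 was -0.84, and edgeR called 0 of them. An unadjusted p under 0.05 was reached by 16, all lower, against 6.22% of all genes lower. DESeq2 called 10 lower, where it called 3.16% of all genes with an adjusted p lower. COL14A1, a collagen on fibril surfaces, had 9.19 ± 3.25 CPM post-molt and 38.5 ± 24.7 CPM pre-molt (SD, n = 4 each), and COL6A2, a chain of type VI collagen, had 33.0 ± 13.0 CPM post-molt and 88.1 ± 29.5 CPM pre-molt (SD, n = 4 each). Their changes were -2.07 ± 0.43 and -1.42 ± 0.31 (SE), with edgeR adjusted p-values of 0.0584 and 0.0678. Of the genes in this list, 5 are also among the fibroblast markers, whose sums, given above, moved with the list.

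ADAM substrates included HBEGF, a heparin-bound ligand of the epidermal growth factor receptor released by ADAM17, which fell. HBEGF had 7.73, 8.66, 5.52 and 16.9 CPM in post-molt libraries, against 27.6, 26.3, 40.3 and 64.7 CPM in pre-molt libraries, without overlap. The change was -2.03 ± 0.38 (SE) with an edgeR adjusted p of 0.0482, and the call was kept in 1 of 8 fits that left out 1 library. EGF, another ligand of that receptor, had a change of -1.58 ± 0.32 (SE; edgeR adjusted p = 0.0545). DLL1, a Notch ligand, had 9.13, 9.39, 14.3 and 10.5 CPM in post-molt libraries, against 6.47, 5.30, 4.28 and 6.01 CPM in pre-molt libraries. It did not overlap between the groups and was named after its values were seen, with a change of 0.97 ± 0.30 (SE) and an adjusted p of 0.192 in edgeR and 0.0197 in DESeq2. Of the 21 tested substrates, edgeR called 1 lower and 0 higher, where it called 0.133% and 0.217% of all genes. DESeq2 called 2 lower (HBEGF and EGF) and 1 higher (DLL1), where it called 3.16% and 3.35% of all genes with an adjusted p. At an unadjusted edgeR p under 0.05, 2 were higher and 3 lower, against 5.2% and 6.22% of all genes. Fold changes were above 0 for 15 of the 21, with a median of 0.22, where 46.4% of all genes lay above 0.

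Among 11 tested partners of ADAM10 and ADAM17, edgeR called 0. DESeq2 called 1, lower, where it called 3.16% of all genes with an adjusted p lower. TSPAN14, a tetraspanin that escorts ADAM10 to the cell surface, had 25.4, 41.5, 35.8 and 35.5 CPM in post-molt libraries, against 99.5, 80.7, 72.9 and 55.6 CPM in pre-molt libraries. The groups did not overlap, and the change was -1.16 ± 0.23 (SE; edgeR adjusted p = 0.0535). ITGB1, an integrin chain, had a change of -0.46 ± 0.19 (SE; edgeR adjusted p = 0.369).

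Activators and inhibitors outside the families gave 0 calls in edgeR among 16 tested genes. In DESeq2 they gave 1 lower call, where it called 3.16% of all genes with an adjusted p lower. PCOLCE, which enhances procollagen C-proteinase, had 8.57, 9.64, 4.55 and 10.5 CPM in post-molt libraries, against 22.4, 35.8, 12.2 and 24.6 CPM in pre-molt libraries (change -1.51 ± 0.35, SE; edgeR adjusted p = 0.0800). It is also a fibroblast marker. THSD4, a microfibril protein related to the ADAMTS-like family, had a change of 1.64 ± 0.73 (SE; edgeR adjusted p = 0.410). In the plasminogen system, whose protease plasmin activates several proMMPs, 9 genes were tested and 0 passed edgeR or DESeq2. SERPINE2, an inhibitor of thrombin and other serine proteases, had a change of -0.99 ± 0.50 (SE; edgeR adjusted p = 0.504). Of 8 other matrix peptidases tested, edgeR called 0 and DESeq2 called 1 lower, against the same 3.16% of all genes. HTRA1, a secreted serine protease, had a change of -0.91 ± 0.27 (SE; edgeR adjusted p = 0.169). FAP, a serine protease of activated fibroblasts, had one of -2.62 ± 1.39 (SE; edgeR adjusted p = 0.538).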

How the data were processed

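RNA of 8 longissimus dorsi biopsies was sequenced. The authors deposited raw counts of reads per gene, which they made with bcl2fastq (2.20) and STAR against the Hawaiian monk seal genome with its NCBI annotation, followed by their own analysis in R (3.4.3) with DESeq2 (1.18.1). The counting strand is not given in the sources used here, and whether overlaps between genes affect the counts was not tested. Reads that map to several places are left out by STAR's counting. Rows with no gene name (7) held 0.0115 to 0.0153% of the counts and were set aside.

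Counts were analysed in R (4.3.3) with edgeR (4.0.16): TMM scaling, filterByExpr with a minimum count of 10 and a minimum total of 15, the quasi-likelihood test of the 4 post-molt against the 4 pre-molt libraries with no covariate, and Benjamini-Hochberg adjustment at 0.05 over 14315 genes. SE is the size of the log2 fold change divided by the square root of F. DESeq2 (1.42.0), limma-voom (3.58.1), other scalings and filters and leaving out libraries were alternatives. Each test was checked on simulated counts. No library repeated another: chi-square over degrees of freedom was at least 107 in all 28 pairs.

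Members, role groups and gene lists were chosen with earlier results of these data known. Named genes were members with an adjusted p under 0.05 in edgeR or DESeq2 or an unadjusted edgeR p under 0.05, every TIMP, the 2 members of highest mean CPM in each role subgroup, and in each related list the calls and the 2 genes of smallest p, of which 1 is not reported here. Members named outside the rule are marked in the text or given by range only, apart from the untested MMP7. Gene neighbours and overlaps came from the RefSeq annotation of the elephant seal assembly, in which 42 of 43 members matched by symbol. Its coordinates are not used here, and gene lengths are not used, so levels were not compared between genes.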

Additional observations from a re-analysis of the deposited data

Results flagged for a closer look

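Of 52 groups of 4 values tested for a single sample far from the others, 4 were marked, where chance gives about 1 in 20. Pre-molt 6762 was the highest for ADAM9, at 50.1 CPM against 34.5 to 35.9 CPM in the other pre-molt libraries. Post-molt 4448 was the highest for ADAM11, at 2.58 CPM against 0 to 0.389 CPM in the other post-molt libraries. Pre-molt C497 was the highest for ADAMTS8, at 30.5 CPM against 1.81 to 4.08 CPM in the other pre-molt libraries. The same library was the lowest for ADAMTS17, at 0.705 CPM against 1.64 to 1.81 CPM in the others.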

How the results depend on the processing

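No paired analysis was possible because only 1 seal has a library at both times. Among all genes, 31 were called higher and 19 lower. Without the filter these counts were 129 and 97, in DESeq2 335 and 316, in limma-voom 55 and 39, in robust edgeR 31 were lower, and with library totals alone 10 were lower. Leaving out 1 library gave 7 to 28 higher and 2 to 21 lower, leaving out both libraries of seal 5572 gave 3 and 2, and 0 and 0 were called without pre-molt 5842 and post-molt 9678 and, chosen after seeing the data, without post-molt 4448 and 9678. Among members, 0 higher and 1 lower became 3 higher without the filter (ADAMTS1, ADAMTSL4 and TIMP4), 4 higher and 3 lower in DESeq2, and 0 lower in both of the last 2 settings. Library totals alone moved the median of all genes to 0.10, from -0.04 with TMM. Of the 26 named members, 16 kept their direction in every setting, MMP11, MMP2, ADAMTS1, ADAMTS8, ADAMTSL4, TIMP3 and TIMP4 among them. MMP9 was -1.26 in limma-voom, -1.79 without seal 5572 and -1.43 to 1.10 when leaving out 1 library; MMP25 was -1.75, -1.65 and -1.74 to 1.22 in the same settings. MMP14 was 0.0225, ADAM15 0.19, ADAMTS2 0.51 and TIMP1 0.0706 without pre-molt 5842 and post-molt 9678. ADAM9 was 0.17, ADAM11 -0.40 and ADAMTSL5 -0.0922 without post-molt 4448 and 9678. With library totals alone ADAM9 was 0.0813, ADAM15 0.0235 and TIMP1 0.15, and in limma-voom ADAMTS2 was 0.59 and TIMP1 0.0855. Leaving out 1 library gave -0.26 to 0.0943 for ADAM9, -0.48 to 0.0082 for ADAM15, -0.97 to 2.09 for ADAM11, -0.71 to 0.54 for ADAMTS2, -0.00926 to 0.29 for ADAMTS10 and -0.24 to 0.28 for TIMP1. The cause was not tested. DESeq2 fits that left out libraries were chosen after seeing the data. Zeros limit the 15 members that hold them. Of the 2 libraries with the most zeros, post-molt 4448 had the most counts of any library and post-molt 9678 the fewest.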

Other observations

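MMP8, the collagenase of neutrophils, fell below the count minimum, with 0, 14, 0 and 4 counts in post-molt libraries, against 0, 0, 8 and 32 counts in pre-molt libraries. Pre-molt 5842, which had the highest fibroblast marker sum, was also the highest of the 8 libraries for 12 of the 43 members, MMP2, MMP14, ADAM10 and TIMP2 among them.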
